A study of Mus musculus with 4 samples.

Results

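The interferon-stimulated genes described here are 43 named mouse genes, taken by their symbols from a table of 24441 genes measured by RNA-seq in whole skin. All 43 were listed, and all 43 passed the filter of at least 1 FPKM (read fragments scaled to transcript length and library depth) in at least 2 of the 4 libraries, as did 13027 genes in all. The libraries came from female C57BL/6 mice labelled as 8 weeks old, each treated with subcutaneous bleomycin (BLM), a DNA-damaging drug that gives a scleroderma-like fibrosis of the skin, over 28 days. The 2 WT libraries and the 2 GSDMD KO libraries (GSDMD-/-) therefore shared, by their labels, the strain, sex, age and BLM treatment, and differed in gasdermin D, the pore-forming protein that executes pyroptosis. The knockout was made by Cas9 in fertilized C57BL/6 eggs, so it was carried by every cell type, and skin of mice without BLM was not analysed here. The comparison asked how the loss of GSDMD altered expression in BLM-treated skin, here for the genes that interferon turns on.

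Interferons are secreted cytokines that act through paired cell-surface receptors. Type I and type III interferons activate a complex, with STAT2 and IRF9 among its parts, that binds the interferon-stimulated response element (ISRE), while interferon gamma acts through gamma-activated sites (GAS). The genes switched on in this way encode sensors of viral RNA and DNA, proteins that block viral replication, GTPases that act on pathogen vacuoles, and the immunoproteasome and peptide transporter that feed MHC class I. In skin, keratinocytes, fibroblasts, endothelial cells and infiltrating myeloid cells all respond to interferon, and a raised interferon signature is a known feature of systemic sclerosis.

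Gsdmd was listed at 14.0 and 18.2 FPKM in the WT libraries, against 3.53 and 2.26 FPKM in the KO libraries, so the targeted gene matched the labels in each library (log2 fold change -2.14, SE 0.29, adjusted p = 0.248 by limma), with reads left over in both KO libraries. Which part of the gene was removed is not given in the sources used here. The libraries were not alike beyond genotype. Across all tested genes 74.1% of the variance lay along a first component on which KO replicate 2 scored 75.4 and KO replicate 1 only 6.16, with -27.7 and -53.9 for WT. KO replicate 2 was also the only library with the Y-linked genes Ddx3y, Kdm5d, Uty and Eif2s3y above 0, at 1.78 FPKM summed, although all mice were labelled female. From the steps between low values, a single fragment on a 1 kb transcript was worth 0.0574 FPKM in the deepest library and 0.0783 FPKM in the shallowest. The keratins Krt5 and Krt14 of the basal epidermis were at 764 FPKM or more in each library, and 5 skeletal muscle markers together reached 12235 FPKM or more, so muscle RNA was present in all 4 libraries.

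The promoters of these genes were first searched for the letters of the 2 elements. RefSeq (GRCm38.p6) promoters matched 33 of the 43 genes by symbol, and each was searched on both strands over the 250 bases before the start. The ISRE letters, GAAA and after any 2 bases GAAA again, were found in 15 of the 33 genes (45.5%), against 3.46% of the 27025 genes with a promoter in that table. The GAS letters TTCNNNGAA were found in 9 of the 33 (27.3%), against 8.13% of those genes. Per promoter, the shares were 2.98% and 7.02% of 32851. A match describes letters only and does not show that a factor binds there. The 160 bases before the start of 6 genes follow, 5′ to 3′ on the strand of the gene, chosen as holders of either motif with a high level in WT skin in different role groups. Capitals mark the matches, which may overlap each other.

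Isg15, chr4:156200819-156200978, minus strand: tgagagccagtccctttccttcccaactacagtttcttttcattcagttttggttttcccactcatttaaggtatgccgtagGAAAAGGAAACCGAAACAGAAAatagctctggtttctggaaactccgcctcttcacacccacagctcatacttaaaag
Ifit3, chr19:34583369-34583528, plus strand: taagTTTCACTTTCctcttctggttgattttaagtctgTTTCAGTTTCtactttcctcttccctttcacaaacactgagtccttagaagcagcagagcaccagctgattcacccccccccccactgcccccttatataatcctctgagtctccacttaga
Bst2, chr8:71537473-71537632, minus strand: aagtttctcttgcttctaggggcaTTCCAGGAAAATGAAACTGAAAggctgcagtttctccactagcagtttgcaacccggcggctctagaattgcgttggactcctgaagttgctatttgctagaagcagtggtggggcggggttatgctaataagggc
Igtp, chr11:58199396-58199555, plus strand: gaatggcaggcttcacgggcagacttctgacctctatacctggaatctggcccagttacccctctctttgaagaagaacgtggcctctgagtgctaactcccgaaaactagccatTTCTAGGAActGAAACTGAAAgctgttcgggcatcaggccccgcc
Psmb8, chr17:34198035-34198194, plus strand: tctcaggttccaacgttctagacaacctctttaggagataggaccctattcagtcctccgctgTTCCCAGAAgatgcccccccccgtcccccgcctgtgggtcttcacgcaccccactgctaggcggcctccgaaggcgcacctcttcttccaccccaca
Irf1, chr11:53769854-53770013, plus strand: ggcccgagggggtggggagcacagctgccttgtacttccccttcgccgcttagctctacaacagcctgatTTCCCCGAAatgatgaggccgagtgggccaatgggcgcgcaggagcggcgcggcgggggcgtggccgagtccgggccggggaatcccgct

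Isg15 held 3 overlapping ISRE matches in 1 run and Ifit3 held 2 separate ones on the opposite strand. In Bst2 a GAS match ran into a pair of ISRE matches, in Igtp the 2 kinds lay next to each other, and Psmb8 and Irf1 held a GAS match and no ISRE match.

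Most of the interferon-stimulated genes were lower in BLM-treated GSDMD KO skin than in BLM-treated WT skin, but none of them passed the test. In bulk skin, fewer cells of a type and less RNA per cell cannot be told apart. The fitted log2 fold change was below 0 in 40 of 43 genes, against 41.4% of all tested genes, and above 0 in Irf9, Eif2ak2 and Tap1. The median was -0.81 on the log2(FPKM + 1) scale, with a range from -2.54 to 0.14, beside a median of 0.11 over all tested genes. Each KO library was lower than each WT library in 32 of the 43 genes, which held for 20.5% of all tested genes, and in the other 11 the groups overlapped. In none of the 43 did both KO libraries lie above both WT libraries, which held for 35.3% of all tested genes.

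**Figure D1:**
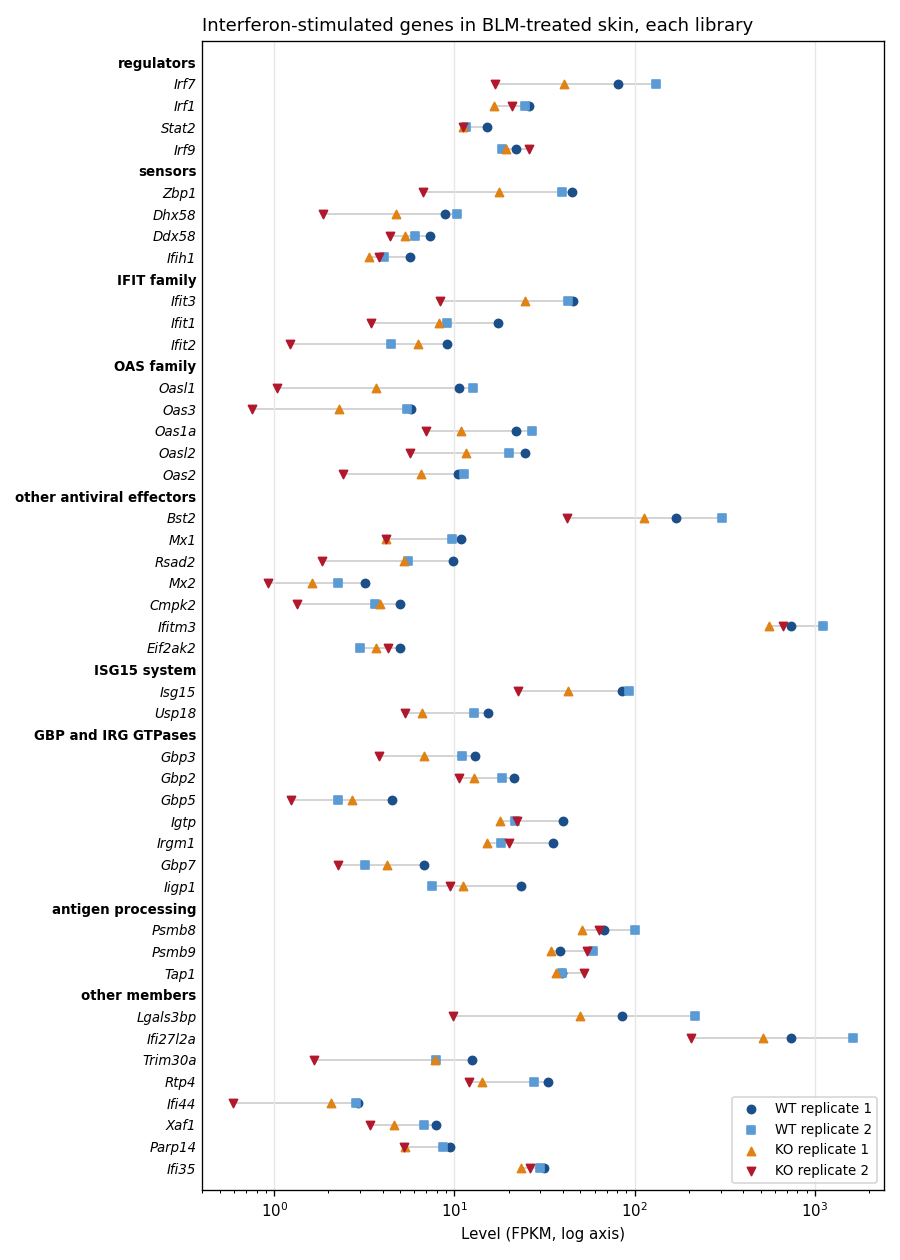
Level of each of the 43 interferon-stimulated genes in each library, in FPKM on a log axis, ordered by role, with circles and squares for the 2 WT libraries and triangles for the 2 KO libraries. KO replicate 2 was the lowest library in 30 of the 43 genes and KO replicate 1 in 10.

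The study applied a threshold of an adjusted p under 0.05 with an absolute log2 fold change above 1 to read counts, using DESeq2. At the same threshold on FPKM values, limma called 0 of the 43 genes and 0 of 13027 genes (0% of the tested genes). The study's own test was not repeated here, so the 2 outcomes are not alike in method. The adjusted p over all tested genes ran from 0.248 to 0.976 for the 43, where 0.190 was the smallest for any gene. Without the adjustment, 20 of the 43 had a p under 0.05 (17.1% of all tested genes). Of these, 17 also had a log2 fold change below -1 (4.14% of all tested genes) and 0 had one above 1 (6.16%). A log2 fold change below -1, whatever the p, was found in 19 of the 43 (6.59% of all tested genes). For 2 libraries against 2, the smallest two-sided p that an exact permutation test of any gene allows is 0.333.

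KO replicate 2 stood farther from WT than KO replicate 1. Against the mean of the WT libraries the median of the 43 genes was -0.65 in KO replicate 1 and -1.17 in KO replicate 2, while the median of all tested genes was 0.11 in the former and 0.13 in the latter. KO replicate 2 was below KO replicate 1 in 31 of the 43 genes, and in 47.9% of all tested genes. Without KO replicate 2, all 43 genes had a log2 fold change below 0, 11 were below -1 (2.83% of all tested genes) and 10 of these had an unadjusted p under 0.05 (2.56%). Without KO replicate 1, 39 of the 43 were below 0, 23 were below -1 (12.5% of all tested genes), all 23 had an unadjusted p under 0.05 (12.3%), and 21 of the 43 passed the adjusted threshold together with 2058 of the 13027 genes, in a fit with a single KO library. Without WT replicate 1 or WT replicate 2 the count with an unadjusted p under 0.05 and a log2 fold change below -1 was 10 of the 43 (3.29% of all tested genes) or 9 of the 43 (1.86%).

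**Figure D2:**
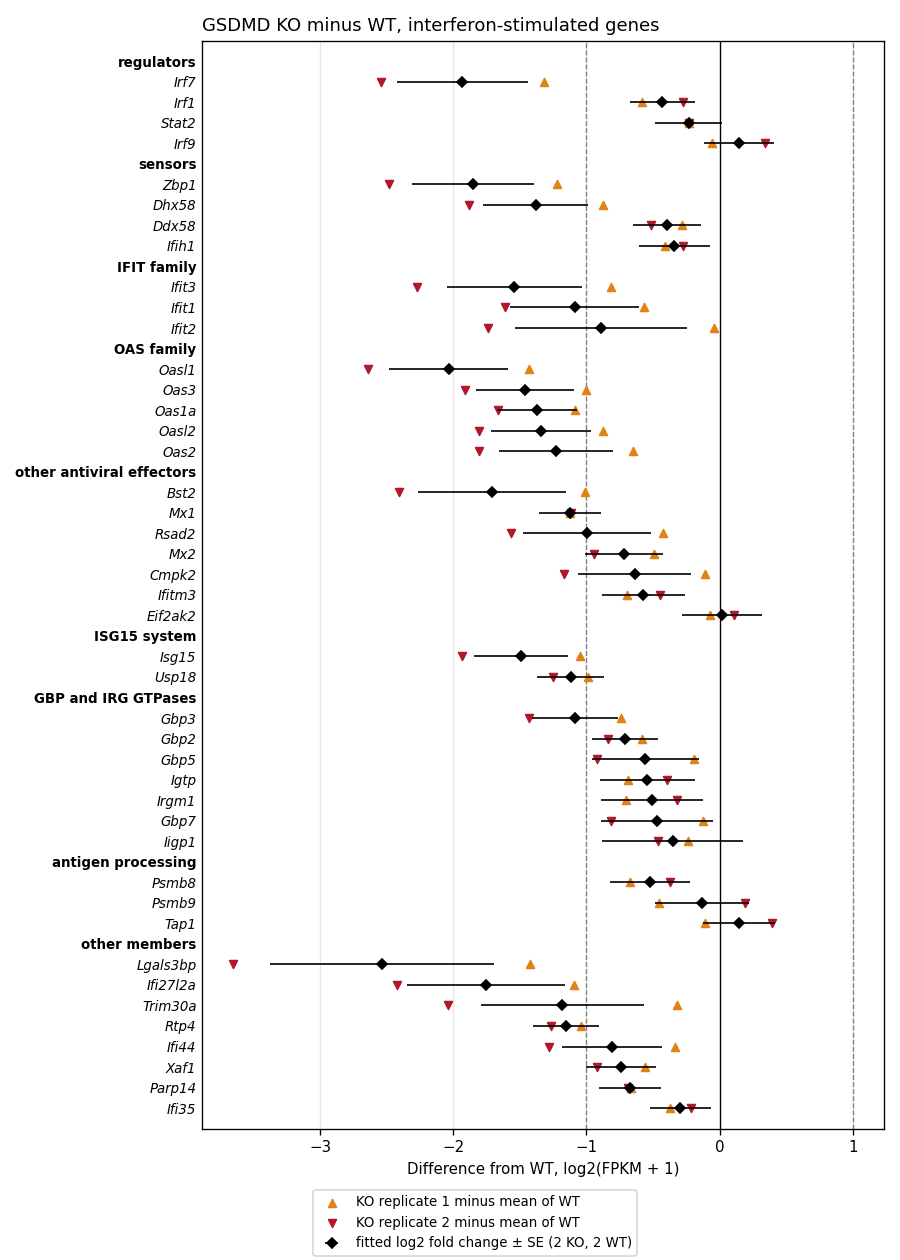
Difference between KO and WT skin for each interferon-stimulated gene on the log2(FPKM + 1) scale. Diamonds and bars give the fitted log2 fold change ± SE over 2 KO and 2 WT libraries, triangles give each KO library minus the mean of WT, and dashed lines stand at -1 and 1. The OAS genes, Isg15, Irf7 and Lgals3bp lie beyond -1, and Psmb9, Tap1, Irf9 and Eif2ak2 lie near 0.

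Markers of cell types differed between the same libraries. The 11 macrophage markers, led in level by Lyz2 and the C1q genes, summed to 2096 and 2124 FPKM in WT against 894 and 101 FPKM in KO. All 11 had a log2 fold change below 0 (41.4% of all tested genes) and 8 had the groups apart (20.5%), and their median difference from WT was -0.998 in KO replicate 1 and -3.66 in KO replicate 2. The neutrophil markers, 6 of 8 of which passed the filter, summed to 766 and 633 FPKM in WT against 310.3 and 152 FPKM in KO. S100a8 and S100a9 made up most of these sums, at 440 and 312 FPKM in WT replicate 1. The groups were apart in 5 of the 6 tested markers (20.5% of all tested genes) and overlapped for Cxcr2 (log2 fold change -0.43). Ly6g and Ngp did not pass the filter. Fibroblast, endothelial and adipocyte markers had median differences from WT of -2.71, -2.38 and -3.68 in KO replicate 2 and of 0.80, 0.10 and -0.31 in KO replicate 1. The skeletal muscle markers summed to 19954 and 18908 FPKM in WT against 12235 and 12493 FPKM in KO, with the groups apart in 4 of 5 and medians of -0.79 in KO replicate 1 and -0.64 in KO replicate 2. The keratinocyte markers summed to 4949 and 3544 FPKM in WT against 10656 and 5115 FPKM in KO, with medians of 1.54 in KO replicate 1 and -0.51 in KO replicate 2, where Krt5 and Krt14 were above the mean of WT and Krt1, Krt10, Lor and Ivl below it. The hair follicle markers reached 301 FPKM in KO replicate 1 and between 0.802 and 8.06 FPKM in the other 3 libraries. T cell markers were at 7.78 and 7.58 FPKM in WT against 9.26 and 3.28 FPKM in KO, NK cell markers at 2.45 and 3.86 FPKM in WT against 2.42 and 0.286 FPKM in KO. Of 5 markers of plasmacytoid dendritic cells, Siglech was at 0 in all 4 libraries and Ccr9 was between 0.0510 and 0.196 FPKM. Irf8, which other myeloid cells share, was at 9.48 and 14.5 FPKM in WT against 6.69 and 1.80 FPKM in KO (log2 fold change -1.46, SE 0.54). Tcf4 had a log2 fold change of 0.11, and Ly6d, which the epidermis shares, one of 1.13. The part of these markers in the lower level of the interferon-stimulated genes was not tested.

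**Figure D3:**
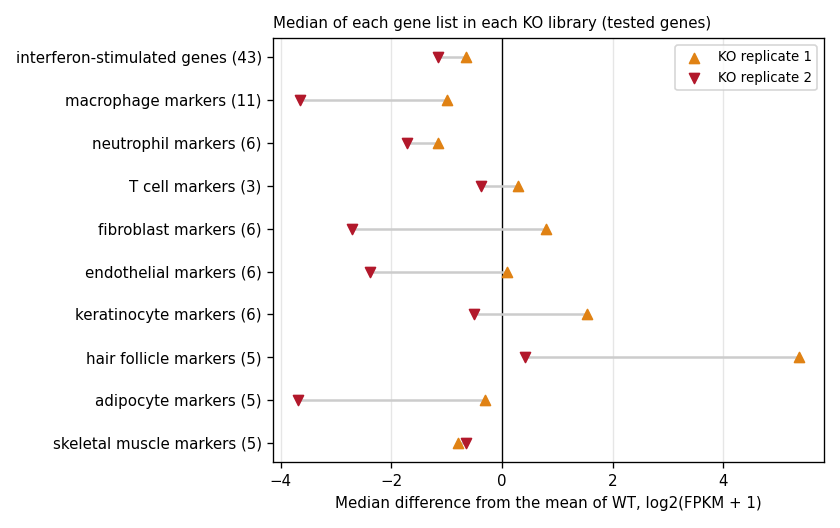
Median difference of each gene list from the mean of WT in KO replicate 1 (orange) and KO replicate 2 (red), on the log2(FPKM + 1) scale, with the number of tested genes in brackets. The interferon-stimulated genes stand at -0.65 and -1.17, and the macrophage markers at -0.998 and -3.66.

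Among the 4 regulators, Irf7 is the transcription factor that amplifies type I interferon production and is itself induced by interferon. It was listed at 80.4 and 132 FPKM in the WT libraries, against 40.8 and 16.8 FPKM in the KO libraries, so that the groups were apart and KO replicate 2 was lowest. The mean in KO skin was 27.1% of that in WT skin (log2 fold change -1.93, SE 0.50, adjusted p = 0.248 by limma). The study itself reported Irf7 as down-regulated in KO skin from these same libraries, so its fall here is not an independent result. Irf7 lies on chromosome 7 of mm9, from 148449082 to 148452323, where its exons overlap those of Phrf1 on the opposite strand, and strand was not stated for the counting. The other 3 regulators stood closer to WT. Irf1, a factor driven by interferon gamma, was at 26.1 and 24.6 FPKM in WT against 16.5 and 20.8 FPKM in KO (log2 fold change -0.43, SE 0.24). Stat2 was at 15.1 and 11.6 FPKM in WT against 11.1 FPKM in both KO libraries (-0.23, SE 0.25). Irf9, its DNA-binding partner, was at 21.9 and 18.5 FPKM in WT against 19.3 and 25.8 FPKM in KO (0.14, SE 0.26), with the groups overlapping, and its sign turned without KO replicate 2. Exons of Irf9 overlap those of Rnf31 on the same strand.

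All 4 nucleic acid sensors had the groups apart (20.5% of all tested genes), with a median log2 fold change of -0.89. Zbp1, which senses Z-form nucleic acids and can trigger necroptosis, was at 45.0 and 39.6 FPKM in WT against 17.6 and 6.73 FPKM in KO, 28.7% of the WT mean (log2 fold change -1.85, SE 0.46, adjusted p = 0.248). Dhx58 (LGP2), a regulator of the RIG-I-like receptors, was at 8.86 and 10.3 FPKM in WT against 4.74 and 1.86 FPKM in KO (-1.38, SE 0.39). Without KO replicate 2, Dhx58 was no longer below -1, at -0.88, and Zbp1 was at -1.22. The double-stranded RNA receptors themselves differed less. Ddx58 (RIG-I) was at 7.31 and 6.07 FPKM in WT against 5.32 and 4.38 FPKM in KO (-0.40, SE 0.25). Ifih1 (MDA5) was at 5.66 and 4.06 FPKM in WT against 3.38 and 3.80 FPKM in KO (-0.34, SE 0.27).

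The OAS family holds the 2′-5′ oligoadenylate synthetases, which make the second messenger that activates RNase L, and related proteins. All 5 genes had a log2 fold change below -1 with an unadjusted p under 0.05 (4.14% of all tested genes), all 5 had the groups apart (20.5%), and KO replicate 2 was the lowest library in all 5. The median log2 fold change was -1.37, with adjusted p from 0.248 to 0.270. Without KO replicate 2, Oas2 and Oasl2 were no longer below -1, at -0.65 and -0.88. Oasl1, which restrains translation of Irf7 mRNA, was at 10.7 and 12.7 FPKM in WT against 3.69 and 1.03 FPKM in KO, 20.2% of the WT mean (log2 fold change -2.03, SE 0.45). Oas3 was at 5.73 and 5.49 FPKM in WT against 2.29 and 0.753 FPKM in KO (-1.46, SE 0.37). Oas1a was at 21.8 and 26.8 FPKM in WT against 10.9 and 6.97 FPKM in KO (-1.37, SE 0.30). Oasl2 and Oas2 had log2 fold changes of -1.34 and -1.23. All 5 genes lie on chromosome 5 of mm9, with Oasl1 from 115373249 to 115387920 and Oasl2 just before it, and Oas2, Oas3 and Oas1a following each other from 121180342 to 121357534. The value of Oas1a is uncertain, since 100% of its transcript was covered by stretches of Oas1g at 95% identity or more.

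Of the IFIT proteins, IFIT1 binds foreign RNA lacking the cap methylation of host mRNA. The 3 genes lie together on chromosome 19 of mm9 between 34625184 and 34724499. Ifit3, whose promoter is shown above, was at 45.3 and 42.6 FPKM in WT against 24.6 and 8.32 FPKM in KO (log2 fold change -1.54, SE 0.51, adjusted p = 0.262). Ifit1 was at 17.4 and 9.11 FPKM in WT against 8.21 and 3.45 FPKM in KO (-1.09, SE 0.48). Ifit2 overlapped between the groups, at 9.14 and 4.46 FPKM in WT against 6.24 and 1.23 FPKM in KO (-0.89, SE 0.64). KO replicate 2 was lowest for all 3, and without it the log2 fold changes of Ifit3, Ifit1 and Ifit2 were -0.81, -0.56 and -0.039. Reads of Ifit3 may be split with its neighbour I830012O16Rik, which covered 97.4% of its transcript.

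Isg15 encodes the ubiquitin-like protein that is joined to newly made proteins, and Usp18 the protease that removes it and damps signalling from the interferon receptor. Isg15, which held the run of 3 ISRE matches, was at 85.3 and 93.3 FPKM in WT against 42.6 and 22.6 FPKM in KO, 36.5% of the WT mean (log2 fold change -1.49, SE 0.36, adjusted p = 0.248). It lies on chromosome 4 of mm9, from 155573533 to 155574927, with no annotated exon of another gene over it. Usp18 was at 15.4 and 12.9 FPKM in WT against 6.61 and 5.34 FPKM in KO (-1.12, SE 0.25, adjusted p = 0.248). For both genes the groups were apart and the 2 KO libraries were each below the lower WT library by more than the WT libraries differed from each other.

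The other antiviral effectors were a mixed group, with a median log2 fold change of -0.72 over 7 genes. Bst2 (tetherin), which holds budding virions at the cell surface, was at 170.3 and 306 FPKM in WT against 113 and 42.2 FPKM in KO (log2 fold change -1.71, SE 0.56, adjusted p = 0.261). Mx1, a gene of the dynamin-like GTPase family, was at 10.8 and 9.76 FPKM in WT against 4.17 and 4.199 FPKM in KO (-1.12, SE 0.23, adjusted p = 0.248 by limma), so that here the 2 KO libraries were alike. Rsad2 (viperin) was at 9.84 and 5.55 FPKM in WT against 5.28 and 1.84 FPKM in KO (-0.996, SE 0.48). Its neighbour on chromosome 12 of mm9, the nucleotide kinase gene Cmpk2, overlapped between the groups at 4.995 and 3.61 FPKM in WT against 3.87 and 1.34 FPKM in KO (-0.64, SE 0.42). Ifitm3, which blocks viral entry at endosomes, was at 734 and 1111 FPKM in WT against 558 and 661 FPKM in KO (-0.57, SE 0.31). Eif2ak2 (PKR), the kinase that stops translation on double-stranded RNA, was at 5.01 and 2.999 FPKM in WT against 3.67 and 4.29 FPKM in KO (0.02, SE 0.30), and its sign turned when the libraries were rescaled. Mx2 had a log2 fold change of -0.72, and Mx1 covered 34.8% of its transcript.

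The GBP and IRG GTPases, induced above all by interferon gamma, attack the vacuoles of intracellular pathogens. All 7 had a log2 fold change below 0 (41.4% of all tested genes), and the groups were apart in 2 of the 7 (20.5%). The median was -0.54. Gbp3 was at 13.0 and 11.0 FPKM in WT against 6.78 and 3.81 FPKM in KO (log2 fold change -1.08, SE 0.32, adjusted p = 0.248), and Gbp2 at 21.3 and 18.3 FPKM in WT against 12.8 and 10.6 FPKM in KO (-0.71, SE 0.25). Those were the 2 genes of the group with the libraries apart. In the other 5, WT replicate 1 was the highest library and WT replicate 2 lay below at least 1 KO library. Without WT replicate 1, the log2 fold changes of Igtp, Irgm1, Iigp1, Gbp5 and Gbp7 were -0.12, -0.047, 0.40, -0.18 and -0.024. In the same fit Gbp3 and Gbp2 were at -0.97 and -0.61. Igtp (IRGM3), whose promoter is shown above, was at 40.1 and 21.7 FPKM in WT against 17.998 and 22.2 FPKM in KO (-0.54, SE 0.36). Irgm1 was at 35.2 and 18.1 FPKM in WT against 15.2 and 20.1 FPKM in KO (-0.51, SE 0.38). Iigp1 was at 23.3 and 7.52 FPKM in WT against 11.2 and 9.43 FPKM in KO (-0.35, SE 0.53), and its sign turned without WT replicate 1. Gbp5 and Gbp7 shared an order of libraries, with KO replicate 1 between the WT libraries. Gbp5 was at 4.53 and 2.26 FPKM in WT against 2.71 and 1.24 FPKM in KO (-0.56, SE 0.40), and Gbp7 at 6.75 and 3.20 FPKM in WT against 4.24 and 2.25 FPKM in KO (-0.47, SE 0.42).

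The immunoproteasome subunits Psmb8 and Psmb9 and the peptide transporter Tap1, which lie side by side in the MHC region of chromosome 17, had a median log2 fold change of -0.13, the closest to 0 of the 9 role groups. Against the mean of WT their median was -0.46 in KO replicate 1, where the regulators were closer at -0.41, and 0.19 in KO replicate 2. Psmb8 was at 67.3 and 101 FPKM in WT against 51.2 and 63.3 FPKM in KO (log2 fold change -0.52, SE 0.30), with the groups apart. Psmb9 was at 38.6 and 58.9 FPKM in WT against 34.5 and 54.7 FPKM in KO (-0.13, SE 0.35), and Tap1 at 39.6 and 39.4 FPKM in WT against 36.6 and 52.2 FPKM in KO (0.14, SE 0.27), with the groups overlapping for both. The sign of Tap1 turned without KO replicate 2, and that of Psmb9 without WT replicate 2 or KO replicate 1. In all 3 genes KO replicate 2 was above KO replicate 1. Psmb9 and Tap1 start next to each other on opposite strands. Their spans in the table are apart, but in GENCODE an annotated exon of Psmb9 overlaps an exon of Tap1.

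The remaining 8 interferon-stimulated genes all had the groups apart (20.5% of all tested genes), with a median log2 fold change of -0.98. Lgals3bp, a secreted galectin-binding glycoprotein, had the largest difference of the 43 genes, at 84.8 and 215 FPKM in WT against 49.9 and 9.84 FPKM in KO, 19.9% of the WT mean (log2 fold change -2.54, SE 0.84, adjusted p = 0.263). Its SE was also the largest of the 43, and the rank did not hold in each fit. Without KO replicate 2 it was at -1.42 and Oasl1 at -1.43, and without WT replicate 2 it was at -1.87, with Zbp1 at -1.94 and Oasl1 at -1.92. Ifi27l2a, a small membrane protein gene, was the most abundant in WT skin, at 741 and 1623 FPKM against 513 and 204 FPKM in KO (-1.76, SE 0.59, adjusted p = 0.264), but Ifi27l2b, with exons on the same strand, covered 84.7% of its transcript. Rtp4, a chaperone of membrane receptors, was at 33.3 and 27.7 FPKM in WT against 14.2 and 12.1 FPKM in KO (-1.15, SE 0.25, adjusted p = 0.248), among the smallest errors of the set. Trim30a was at 12.5 and 7.95 FPKM in WT against 7.79 and 1.67 FPKM in KO (-1.18, SE 0.61), so that KO replicate 1 was just below the lower WT library. Ifi44, Xaf1, Parp14 and Ifi35 had log2 fold changes between -0.81 and -0.29.

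The sum of the 43 genes was 2607 and 4130 FPKM in the WT libraries, against 1744 and 1368 FPKM in the KO libraries. Ifitm3 and Ifi27l2a made up most of it. Without these 2 genes the sums were 1132 and 1395 FPKM in WT against 674 and 503 FPKM in KO. WT replicate 1 was the highest library in 29 of the 43 genes and WT replicate 2 in 12, while abundant genes such as Bst2 and Lgals3bp put WT replicate 2 first in the sum.

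The promoter letters were set beside the change for the 33 genes with a promoter. The 10 genes not matched there were left out. Of these, Dhx58, Zbp1, Oas2, Mx1, Usp18, Rtp4 and Ifi27l2a had a log2 fold change below -1, and Mx2, Iigp1 and Parp14 did not. The 15 genes with the ISRE letters had a median log2 fold change of -1.08, ranging from -1.71 to -0.23, with 8 of the 15 below -1. The 18 without them had a median of -0.55, ranging from -2.54 to 0.14, with 4 of the 18 below -1. Both ranges overlapped widely, and Irf7, Oasl1, Oasl2 and Lgals3bp, all below -1, held neither motif in this window. The 9 genes with the GAS letters had a median of -0.54 and the 24 without them one of -0.77. These are descriptions over genes of the same 4 libraries, with no test.

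The other genes of the interferon pathway were followed in a list of 100, of which 99 were in the table and 77 passed the filter. The interferon genes themselves were at or near 0. Of 21 genes for type I, II and III interferons, 14 were at 0 in all 4 libraries and the highest value was 0.238 FPKM, for Ifnb1 in WT replicate 2. In KO replicate 1 Ifnb1 reached 0.129 FPKM, and in WT replicate 1 and KO replicate 2 it was at 0. Ifng was at 0.139 FPKM in KO replicate 1 and at 0 in the other 3. For a transcript of 1 kb, 3 fragments are worth 0.172 to 0.235 FPKM in these libraries, so a difference in the ligands was not detectable at this depth.

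The 6 receptor chains did not all lie on the same side of WT. Ifnar2, a chain of the type I receptor, was at 28.2 and 51.7 FPKM in WT against 26.1 and 11.5 FPKM in KO (log2 fold change -1.09, SE 0.49, adjusted p = 0.327). Its partner Ifnar1 was at 6.23 and 6.79 FPKM in WT against 5.58 and 4.61 FPKM in KO (-0.30). For the interferon gamma receptor, Ifngr1 was at 39.1 and 47.4 FPKM in WT against 34.5 and 23.5 FPKM in KO (-0.58), and Ifngr2 at 36.7 and 29.0 FPKM in WT against 33.2 and 35.0 FPKM in KO (0.06). The type III receptor chain Ifnlr1, known for its epithelial expression, was higher in both KO libraries, at 3.59 and 6.44 FPKM against 1.51 and 1.38 FPKM in WT (1.26, SE 0.32, adjusted p = 0.248). Il10rb, which it shares with the IL-10 receptor, was at 21.2 and 19.7 FPKM in WT against 15.5 and 9.07 FPKM in KO (-0.74).

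Over the 77 tested pathway genes, 62 had a log2 fold change below 0 (41.4% of all tested genes) and 15 above, and limma called 0 at the adjusted threshold. The median was -0.55. It came to -0.31 with KO replicate 2 left out and to -0.69 with KO replicate 1 left out. The log2 fold change was below -1 in 23 (6.59% of all tested genes) and above 1 in 2 (7.18%). An unadjusted p under 0.05 went with the former in 15 (4.14%) and with the latter in 2 (6.16%). The groups were apart with KO lower in 44 (20.5%) and with KO higher in 6 (35.3%). The lowest log2 fold change was that of Slfn2, a Schlafen gene of immune cells, at 57.5 and 55.9 FPKM in WT against 25.9 and 6.25 FPKM in KO (log2 fold change -2.05, SE 0.63, adjusted p = 0.254). By role the medians were -0.44 for the receptors, -0.12 for kinases and STATs, -0.56 for other IRFs, -0.31 for other sensors and adaptors, -0.16 for negative regulators and -0.60 for 43 further interferon-stimulated genes.

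**Figure D4:**
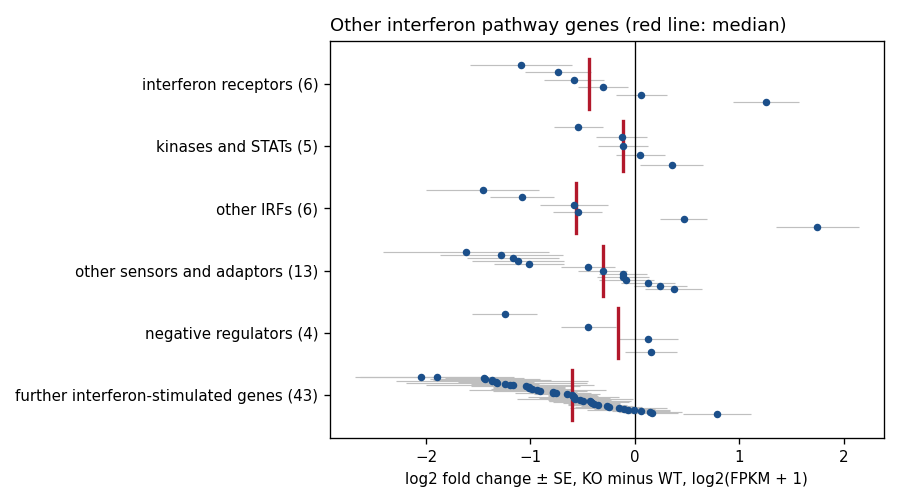
Fitted log2 fold change (KO minus WT, log2(FPKM + 1)) ± SE of the 77 tested pathway genes, 1 point a gene, by role, with a red line at the median of each role. The further interferon-stimulated genes lie mostly below 0, and among the receptors Ifnlr1 lies above 1.

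**Figure D5:**
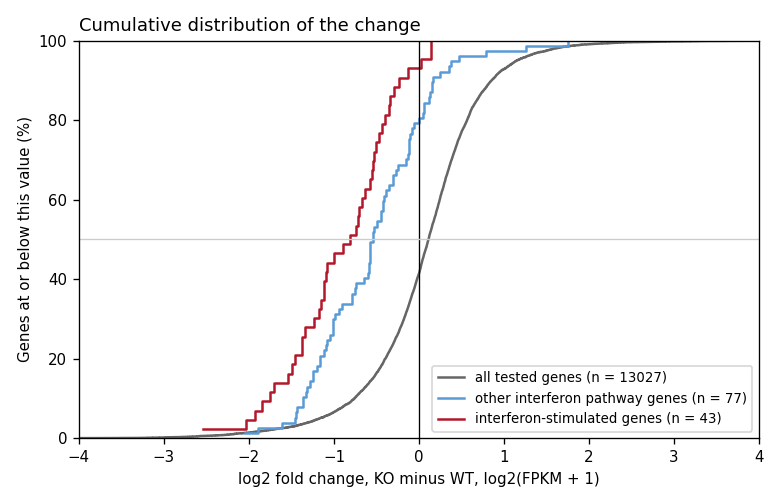
Cumulative share of genes (%) at or below each log2 fold change on the log2(FPKM + 1) scale, for the 43 interferon-stimulated genes, the 77 other pathway genes and all 13027 tested genes. The 3 curves cross 50% at -0.81, -0.55 and 0.11.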

How the data were processed

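RNA-seq of total RNA from BLM-treated skin was available as a single table with 1 column a library. The authors aligned reads to mm9, and the submitters' processing notes name HISAT2 (version 2.0.1) and StringTie (version 2.0.6). The table is named as counts, but 99.993% of its values above 0 are not whole, and the deposited values were taken as FPKM, which the authors had scaled to transcript length and depth. How strand was treated is not given in the sources used here, and 26 row names had been turned into dates.

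Libraries were grouped by the genotype in the labels, with 2 per group. The labels do not state that these came from separate mice, so p-values measure the spread between these samples, which may be technical. A gene was tested (13027 of 24441) where 2 or more libraries reached 1 FPKM, using limma 3.58.1 under R 4.3.3 on log2(FPKM + 1), with a mean-variance trend, genotype as the only term and Benjamini-Hochberg adjustment over all tested genes. Because 1 was added before taking logs, fold changes of weakly expressed genes come out too small. The fit was tested on simulated data. A count model was not used. The depth of a library was read from the spacing of its low values, and floors cover counting error only.

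The 43 genes, their role groups and the pathway and marker lists were chosen with earlier results of these data known. Values by library are printed for the genes with the larger falls in each role group, for each gene whose groups overlapped and for each with a higher KO mean. Some pathway genes are not reported by name here. Gene starts and exon overlaps are from GENCODE vM1 on mm9, with 1 added to the starts of the table. Near copies were found with BLAST+ (version 2.17.0) as stretches of at least 100 bases at 95% identity or more. Promoters are from RefSeq on GRCm38.p6, and positions were not carried between builds. Alternatives were pseudocounts of 0.5 and 0.1, no filter, a mean of at least 5 FPKM, rescaling of the libraries by median ratios or upper quartiles, no trend, a replicate block, and each library left out in turn. A crossed block was added after seeing the data.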

Additional observations from a re-analysis of the deposited data

How the results depend on the processing

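No interferon-stimulated gene passed the adjusted threshold under the 9 settings that kept all 4 libraries. The count of the 43 genes that passed it was 0 to 21 with each library left out in turn, with 21 reached without KO replicate 1. In the same fits the count with an unadjusted p under 0.05 and a log2 fold change below -1 was 9 to 23 (17 with all libraries), the count below -1 was 11 to 23 (19), and the count of pathway genes with an unadjusted p under 0.05 below -1 was 1 to 29 (15), at 3 without WT replicate 1 (3.29% of all tested genes), 4 without WT replicate 2 (1.86%), 1 without KO replicate 2 (2.56%) and 29 without KO replicate 1 (12.3%). The log2 fold change of Gsdmd was -2.38 to -1.90, and passed the adjusted threshold without KO replicate 1 (adjusted p = 0.00427 by limma). The cause was not tested.

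The median log2 fold change of the 43 genes was -1.17 to -0.65 with a library left out, -1.16 with a pseudocount of 0.1, and -1.08 over the 35 genes with a mean of at least 5 FPKM. Rescaling by median ratios moved the median of all tested genes from 0.11 to 0.01 and left 41 of the 43 genes lower. The sign of Eif2ak2 turned, to -0.075 under both rescalings, and with a library left out it was -0.27 to 0.31. Over the same leave-outs Irf9 was at -0.056 to 0.34, Tap1 at -0.11 to 0.39, Psmb9 at -0.46 to 0.19 and Iigp1 at -1.11 to 0.40. No other direction among the 43 genes turned under any setting.

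The labels name no shared batch. The deviations of same-numbered libraries from their group means correlated at -0.20 over 13027 genes. With 2 libraries a group this rests on a single difference within each genotype, so it cannot decide whether the libraries were paired. With the replicate block 19 of the 43 genes and 21 pathway genes had an unadjusted p under 0.05 and a log2 fold change below -1 (5.27% of all tested genes), and 0 passed the adjusted threshold. With the crossed replicate block, chosen after seeing the data, the counts were 17, 15 and 0 (5.23% of all tested genes for the first 2).

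With 2 libraries a group, levels under about 0.235 FPKM on a 1 kb transcript rest on 3 or fewer fragments in the shallowest library.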

Other observations

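Endosomal receptors that detect nucleic acids were also on the pathway list. Tlr7, which senses single-stranded RNA, was at 3.18 and 1.63 FPKM in WT against 1.14 and 0.0808 FPKM in KO, and Tlr9, which senses unmethylated DNA, at 1.62 and 3.29 FPKM in WT against 1.09 and 0.0667 FPKM in KO. Their log2 fold changes were -1.12 (SE 0.44) and -1.17 (SE 0.44). Tlr3, which senses double-stranded RNA, was at 1.58 and 1.15 FPKM in WT against 1.99 and 1.60 FPKM in KO (0.24, SE 0.25). The adaptor Mavs was at 15.4 and 17.1 FPKM in WT against 15.0 and 14.8 FPKM in KO (-0.12, SE 0.23). None of these passed the adjusted threshold in limma. The difference between the receptors was not tested.

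The chemokine genes Cxcl9 and Cxcl10, which interferon gamma induces, overlapped between the groups. Cxcl10 was at 19.5 and 13.0 FPKM in WT against 9.12 and 21.9 FPKM in KO (log2 fold change -0.16, SE 0.46), and Cxcl9 at 2.53 and 2.96 FPKM in WT against 1.53 and 4.08 FPKM in KO (-0.06, SE 0.39). For both, KO replicate 2 was the highest library and KO replicate 1 the lowest, unlike most of the 43 genes.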
